A study of Mus musculus with 24 samples.

Results

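The BCAS operation was compared with a sham operation in microglia sorted from mouse brain, using 12 of the 24 libraries of the series: 6 labelled Sham+PBS (Sham) and 6 labelled BCAS+PBS (BCAS). Both groups were wild type (WT in the labels), received the saline PBS and no exosomes, and were sampled on day 28. The libraries were chosen by these labels, not by any measured value, and every gene with values was used. Sorting was by fluorescence (FACS), and complementary DNA made from the total RNA was amplified by the Smart-seq2 method. The other 12 libraries came from BCAS mice given exosomes and entered only the estimate of the spread between libraries. The labels give no strain, age or sex, and do not say whether each library came from 1 mouse or from a pool. The p-values therefore reflect only how much these samples vary, and part of that variation may be technical.

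BCAS commonly stands for bilateral carotid artery stenosis, in which both common carotid arteries are narrowed so that the forebrain is chronically short of blood flow. White matter, the myelinated tracts below the cortex, is the tissue most sensitive to it, and the operation is a common mouse model of vascular cognitive impairment. Microglia are the resident macrophages of the brain: at rest they survey the tissue with receptors for purines and fractalkine, and around injured myelin they can take up debris, present antigen, release cytokines or switch on interferon-driven genes.

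Library totals were 25123429 to 28601027 estimated counts in Sham and 24277722 to 28892423 in BCAS. A count was found for 9775 ± 455 genes (SD, n = 6) in Sham and 9202 ± 562 in BCAS (two-sided exact permutation p = 0.0671, adjusted p = 0.134 over 2 library measures). A count of 0 in 1 or more of the 12 libraries was found for 46% of the tested genes, but for none with a mean above 100 CPM, the counts of a gene divided by its library's scaled total and brought to one common scale. BCAS replicate 2 stood apart: it scored 29.84 on the first principal component, which held 26% of the variance, while the other 11 libraries lay between -12.96 and 6.75. For genes named here whose call changed without it, the adjusted p without it is given. That library was singled out from these same values, and no gene passed when any other single library was left out. Such an adjusted p shows how far a result depends on that library, and is not counted as a call. Defining microglial transcripts were abundant in all 12 libraries: the fractalkine receptor Cx3cr1 ranged from 3154 to 6538 CPM and the ADP receptor P2ry12 from 3099 to 6425 CPM.

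Transcripts that mark other cell types were uneven. The summed level of 13 oligodendrocyte markers was 164 to 384 CPM in 5 Sham libraries and 8755 CPM in Sham replicate 4, and 125 to 364 CPM in 5 BCAS libraries and 1373 CPM in BCAS replicate 1. The 9 mural cell markers summed to 999 CPM in Sham replicate 2 and 200 CPM in Sham replicate 4, and to no more than 0.149 CPM in any BCAS library. Endothelial markers, 12 in number, reached 1288 CPM in Sham replicate 3 and at most 45 CPM in BCAS. Neuronal markers reached 338 CPM in Sham replicate 1 and 22.6 CPM at most in BCAS. Border macrophage markers, of the macrophages along vessels and in the meninges, summed to 1618 and 1106 CPM in Sham replicates 1 and 3, against 73.8 to 624 CPM in BCAS. The 13 astrocyte markers overlapped between the groups (110 to 270 CPM in Sham, 54.0 to 255 CPM in BCAS). Of 14 neutrophil markers 6 had values, the granule genes S100a9, Camp and Ltf were at 0 in all 12 libraries, and the sum was nearly all Csf3r, a cytokine receptor at 178 to 328 CPM in Sham and 148 to 639 CPM in BCAS (adjusted p = 0.376, and 0.0358 without BCAS replicate 2). Erythroid and T cell markers stayed near 0: the sums reached 4.38 CPM and 19.7 CPM in any library. Markers of oligodendrocyte precursors, monocytes, B cells and ependymal cells summed to at most 98.0, 48.4, 53.5 and 90.1 CPM in any library. The part of these transcripts in the results below was not tested.

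**Figure D1:**
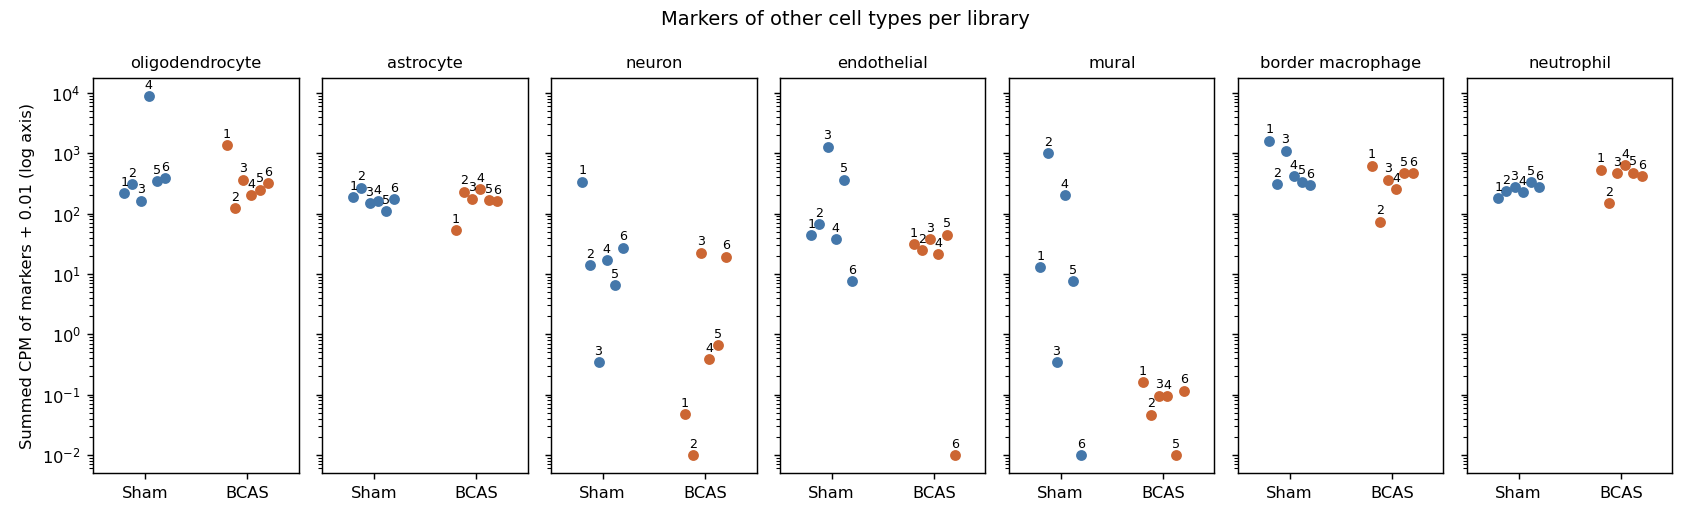
Summed CPM of the markers of 7 other cell types in each library, on a log axis after adding 0.01; each point is 1 library and its number is the replicate. Single Sham libraries are high in oligodendrocyte, neuronal, endothelial and mural markers, and all 6 BCAS libraries are at or below 0.149 CPM for mural markers.

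The comparison asks what the operation changed in microglia after 28 days, gene by gene. No gene passed an adjusted p of 0.05 in the edgeR quasi-likelihood test (0 of 10219 genes, 0.0%), and the smallest adjusted p was 0.131. At an unadjusted p under 0.05 stood 617 genes (6.04% of those tested), 273 higher in BCAS (2.67%) and 344 lower (3.37%). Among genes with a mean above 100 CPM the shares were 7.63% higher and 9.03% lower. Every BCAS library lay above every Sham library for 13 genes (0.127%) and below for 25 genes (0.245%). DESeq2 passed 204 genes (2.0%), 71 higher and 133 lower, and limma voom with library weights passed 9 (0.0881%). Without BCAS replicate 2 the edgeR test passed 32 genes (0.306%), 9 higher and 23 lower, and restricted to genes with a mean of at least 100 CPM it passed 5, all higher (0.351%). That mean was taken over all 24 libraries, most of them from BCAS mice, so the restriction can favour genes that are higher in BCAS. In what follows "higher" and "lower" describe levels, and no gene is said to have changed.

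The clearest pattern was a lower level of cytosolic ribosomal protein transcripts in BCAS. These genes encode the protein part of the ribosome. All 80 measured members passed the filter on low counts and all 80 were lower (median log2 fold change -0.49), while 5097 of all 10219 genes were higher and the median of all genes was 0.00. At an unadjusted p under 0.05 stood 70 of the 80, and for 9 every BCAS library was below every Sham library. Over all tested genes those shares were 3.37% and 0.245%, and 9.03% of genes with a mean above 100 CPM were lower at that p. Transcripts of the 80 genes took 5.74% to 7.1% of all counts in the Sham libraries and 3.87% to 4.38% in 5 of the BCAS libraries. BCAS replicate 2, at 6.16%, lay inside the Sham range.

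Rplp1, an acidic protein of the ribosomal stalk that contacts elongation factors, stood at 1314 CPM at the lowest, 1569 at the median and 1697 at the highest in Sham, and at 805, 895 and 1366 in BCAS. Only BCAS replicate 2 reached the Sham range (log2 fold change -0.69 with an SE of 0.15; adjusted p = 0.166). Rplp2, its partner in the stalk, stood at 418, 471 and 596 CPM in Sham and 198, 282 and 410 CPM in BCAS, and the groups did not overlap (-0.76, SE 0.18, adjusted p = 0.166). Rps24 of the small subunit stood at 609, 669 and 878 CPM in Sham and 313, 386 and 651 CPM in BCAS, with replicate 2 again the highest (-0.77, SE 0.17, adjusted p = 0.166). Rps28, at 460 to 652 CPM in Sham and 261 to 490 CPM in BCAS, and Rpl27a of the large subunit, at 630 to 860 and 361 to 653 CPM, had the same adjusted p. Rpl10, which joins the large subunit late in its assembly, stood at 1503 to 2154 CPM and 1000 to 1698 CPM (adjusted p = 0.179). The groups did not overlap for 2 small subunit genes, Rps3a1 (1085 to 1377 CPM in Sham, 656 to 1075 CPM in BCAS) and Rps20 (439 to 579 and 200 to 406 CPM), both with an adjusted p of 0.206.

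**Figure D2:**
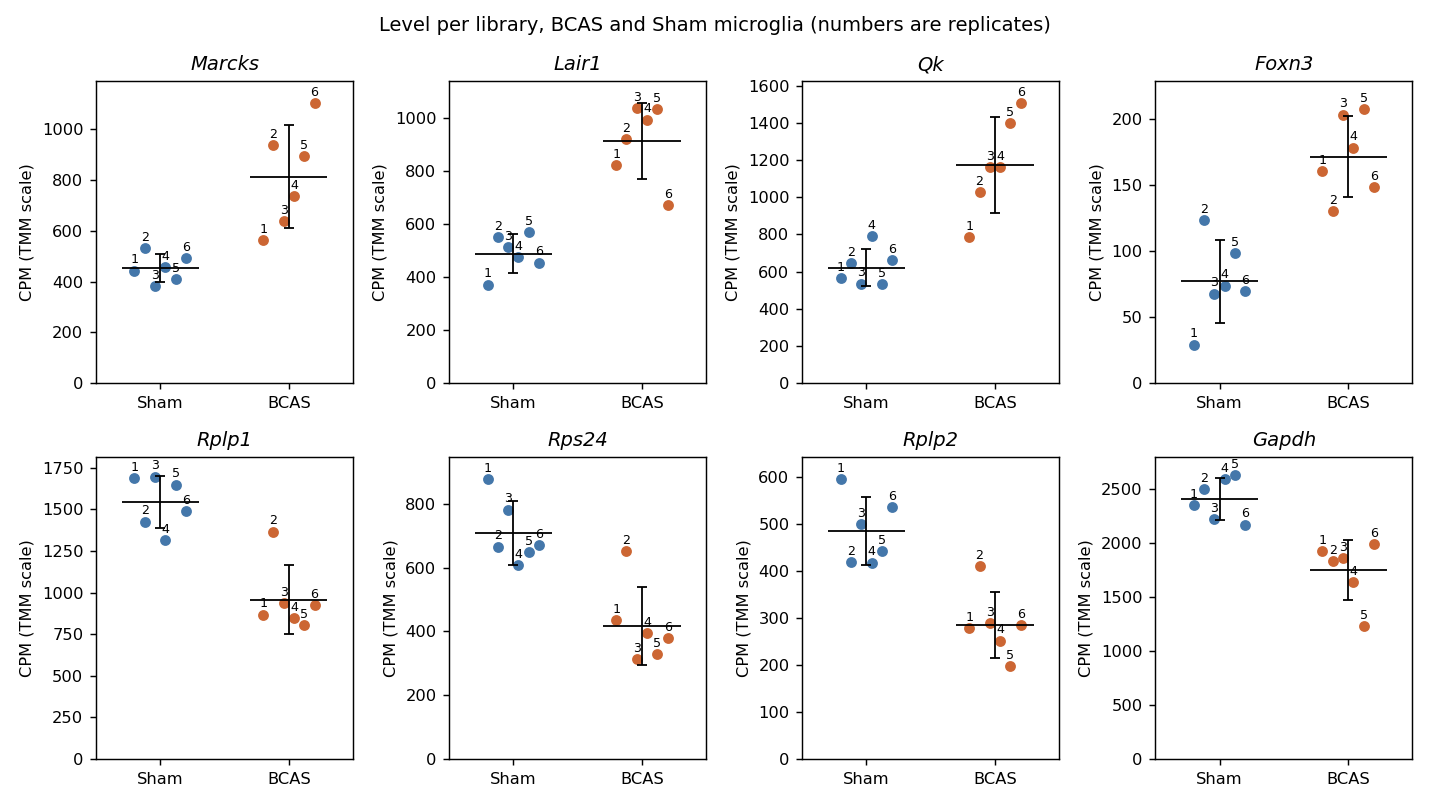
CPM of 8 genes in each library; points are libraries with their replicate number, lines are means and error bars the SD of 6 libraries. Marcks, Lair1 and Foxn3 do not overlap between the groups with BCAS above, Rplp2 and Gapdh do not overlap with BCAS below, and BCAS replicate 2 is the highest BCAS library for Rplp1, Rps24 and Rplp2.

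Without BCAS replicate 2 the median of the 80 genes was -0.63 and 22 of them were among the 32 genes that passed (0.306% of all genes). Without that library the adjusted p was 0.0133 for Rplp1, Rps24, Rps28, Rpl27a and Rpl10, 0.0204 for Rplp2 and Rps3a1, and 0.0322 for Rps20. With a covariate for detected genes, or without Sham replicate 1, 79 of the 80 were lower. Ribosomal protein genes have many near-identical pseudogene copies, and the sources used here do not say how shared reads were assigned, which leaves these counts uncertain.

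Ribosomal protein transcripts commonly begin with an unbroken run of C and T bases at the 5′ end, the 5′-TOP motif through which their translation is coordinated with growth signals. RefSeq (GRCm38.p6) start windows were at hand for 59 of the 80 genes. A run of at least 8 C or T bases that reached within 5 bases of an annotated start, on the transcribed strand, was present at 1 or more of a gene's annotated starts in 24 of the 59 (40.7%), and in 12.4% of the 8343 tested genes with a window. At the first listed start alone it was present in 21 of the 59 (35.6%) and in 9.84% of tested genes. The 5 members with such a run and the smallest p are printed to show the shared feature, each as 30 bases that begin 12 bases before the first listed start, with the run in capitals.
Rps24: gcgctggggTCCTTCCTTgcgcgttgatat
Rplp2: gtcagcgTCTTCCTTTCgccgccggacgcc
Rpl27a: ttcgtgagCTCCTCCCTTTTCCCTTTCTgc
Rpl38: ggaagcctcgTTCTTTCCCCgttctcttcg
Rpl28: cctctcgtgTCTCTCTTTCCgtctccggcc
Their positions are chr14:24490666-24490695, chr7:141447639-141447668, chr7:109519183-109519212, chr11:114668568-114668597 and chr7:4792953-4792982, all on the plus strand. The log2 fold changes of Rpl38 and Rpl28 were -0.78 and -0.72. For Rpl38 the adjusted p was 0.356, and 0.0322 without BCAS replicate 2. The runs are a description of these windows. Rps28 (a run of 4) and Rpl10 (a run of 1) had none of that length in the window used and were lower too, at -0.76 and -0.60.

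Transcript length moved with the comparison. Among genes with a mean above 100 CPM, 98.7% had a coding transcript in GENCODE vM21, and the median log2 fold change was -0.13, 0.01, 0.04 and 0.13 from the shortest to the longest of 4 length classes with equal numbers of genes. Without the ribosomal protein genes the medians were -0.05, 0.02, 0.05 and 0.13. By its longest coding transcript Rplp1 is 499 bases long and Rps28 437 bases, against 4048 for Marcks, 6828 for Lair1 and 8547 for Qk, which were higher. Across all 1410 genes with a length, Spearman rho between length and log2 fold change was 0.28. Without the ribosomal protein genes it was 0.2 across 1331 genes. Single genes named here are exceptions to that order: B2m (860 bases), Ctss (1355) and Lgals9 (1586) were higher, and Sel1l (6300), Ptbp3 (6855) and Celf1 (7851) were lower. Which transcript of a gene was measured is not known from these counts. Measured against the Sham mean, the rank correlation of a library's levels with length, across genes, was 0.17 to 0.31 in 5 BCAS libraries and -0.17 in BCAS replicate 2, while each Sham library against the other 5 gave -0.16 to 0.17. Genes are not independent replicates, and the part of length in the result was not tested.

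**Figure D3:**
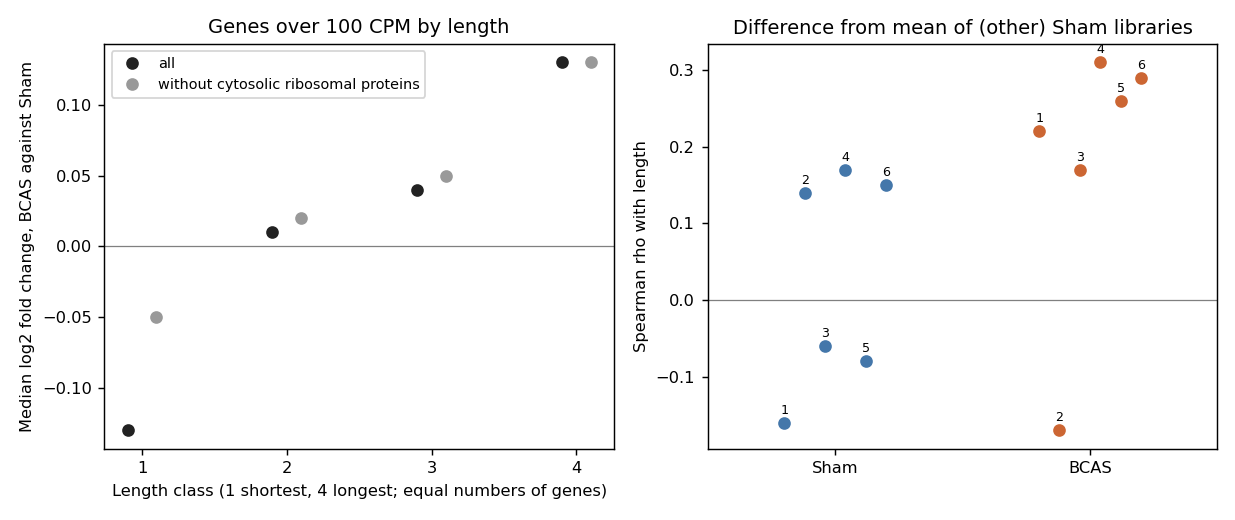
Left: median log2 fold change of genes with a mean above 100 CPM in 4 classes of transcript length, with and without ribosomal protein genes. Right: Spearman rho, across 1410 genes, between transcript length and each library's difference from the mean of the (other) Sham libraries; 5 BCAS libraries lie between 0.17 and 0.31 and BCAS replicate 2 at -0.17.

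Nuclear genes of the respiratory chain were lower as well, by less. Complexes II to V carry electrons to oxygen and make ATP: 35 of 43 tested members were lower (median log2 fold change -0.23), 7 of them at an unadjusted p under 0.05, with none higher at that level. Of all tested genes 3.37% were lower at that level, and of those with a mean above 100 CPM 9.03%. The mean log2(CPM + 1) of complexes II to V was 7.18 to 7.37 in Sham and 6.88 to 7.19 in BCAS, with 5 BCAS libraries below every Sham library. Cox5a, part of cytochrome c oxidase, stood at 91.1, 118 and 134 CPM (lowest, median, highest) in Sham and 40.2, 63.9 and 84.5 CPM in BCAS (-0.82 on the log2 scale, SE 0.27, adjusted p = 0.376). Cox7c, of the same enzyme, stood at 144, 179 and 223 CPM and 102, 123 and 142 CPM (-0.56, SE 0.18, adjusted p = 0.38). For both the groups did not overlap. Cox8a (352 to 542 CPM in Sham, 270.0 to 366 CPM in BCAS) and the ATP synthase component Atp5mpl (95.8 to 159 and 60.7 to 113 CPM) overlapped slightly. The longest coding transcripts of Cox5a, Cox7c, Cox8a and Atp5mpl are short, at 645, 709, 550 and 612 bases. The part of transcript length in these levels was not tested. In complex I, which oxidises NADH, 25 of 36 were lower (median -0.10). Without Sham replicates 1 and 3, 19 of the 36 were lower. Mitochondrial ribosomal proteins had 46 of 78 members lower (median -0.11) and 0 at an unadjusted p under 0.05.

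Enzymes of glycolysis had 14 of 20 members lower (median -0.13). Gapdh, the dehydrogenase in the middle of the pathway, was at 2172, 2426 and 2633 CPM in Sham and 1233, 1850 and 1988 CPM in BCAS, without overlap (-0.46, SE 0.15, adjusted p = 0.379). Tpi1, which interconverts the triose phosphates, stood at 267 to 373 CPM and 140.0 to 375 CPM. The hexokinases that start the pathway lay the other way: Hk2 at 75.4 to 139 CPM in Sham and 97.6 to 199 CPM in BCAS, and Hk3 at 24.3 to 92.9 and 67.8 to 211 CPM (adjusted p = 0.754 and 0.441). Without BCAS replicates 1 and 2, 11 of the 20 enzymes were higher (median 0.01). Nme2, a nucleoside diphosphate kinase that uses ATP to make other triphosphates, was below every Sham library in all 6 BCAS libraries (212 to 350 against 112 to 194 CPM, -0.69, SE 0.18, adjusted p = 0.356). The tricarboxylic acid cycle (16 of 28 higher, median 0.03) and fatty acid oxidation (14 of 28 higher, median 0.00) lay at the median of all genes.

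Among single genes that were higher, Marcks, Lair1 and Qk had the smallest p. Marcks, a membrane-bound substrate of protein kinase C that binds actin and phosphoinositides, stood at 381, 451 and 532 CPM in Sham and 564, 816 and 1103 CPM in BCAS (0.84 on the log2 scale, SE 0.16, adjusted p = 0.131). Lair1, an inhibitory receptor for collagens and for complement C1q, stood at 372, 495 and 569 CPM and 672, 958 and 1039 CPM (0.90, SE 0.18, adjusted p = 0.131). For both, the BCAS libraries all lay above the Sham libraries. Qk, an RNA-binding protein that governs splicing and RNA stability, stood at 531, 605 and 791 CPM and 785, 1161 and 1506 CPM, so that BCAS replicate 1 alone fell inside the Sham range (0.92, SE 0.19, adjusted p = 0.166). Foxn3, a forkhead transcription repressor, did not overlap (29.1 to 123 CPM in Sham, 130 to 207 CPM in BCAS, 1.15, SE 0.25, adjusted p = 0.166). Ptp4a2, a small membrane-anchored phosphatase, stood at 294 to 530 CPM and 471 to 1039 CPM (0.88, SE 0.20, adjusted p = 0.166). These 5 genes are the ones that passed when the test was restricted to a mean of at least 100 CPM, and they also passed without BCAS replicate 2, where their adjusted p ran from 0.0204 (Ptp4a2) to 0.0328 (Qk). The restriction used the mean over all 24 libraries, most of them from BCAS mice. Foxn3, with a mean of 76.8 CPM in Sham and 171 CPM in BCAS, met it only through libraries from BCAS mice. Its pass under that restriction is therefore not separate support.

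Zfhx3, a large homeobox transcription factor, stood at 63.5 to 109 CPM in Sham and 104 to 208 CPM in BCAS (0.91, SE 0.21, adjusted p = 0.166, and 0.0322 without BCAS replicate 2). Skil, a repressor of SMAD signalling that TGF-beta itself induces, was above every Sham library in all BCAS libraries (94.7 to 154 against 158 to 436 CPM, 0.96, adjusted p = 0.279). Usp2, a deubiquitinase, stood at 50.8 to 89.4 and 63.5 to 244 CPM (adjusted p = 0.356). Lgals9, a galectin that binds the checkpoint receptor encoded by Havcr2, stood at 392 to 754 CPM in Sham, at 929 to 990 CPM in 5 BCAS libraries and at 610.0 CPM in BCAS replicate 4 (0.71, SE 0.20, adjusted p = 0.356). Havcr2 itself stood at 227 to 487 CPM and 372 to 579 CPM (adjusted p = 0.595). The list of inhibitory receptors holds Lair1, but also the galectin Lgals9 and some phosphatases, so that not every member is a receptor. It had 18 of 25 members higher (median 0.18), 4 of them and no lower one at an unadjusted p under 0.05. The 4 were Lair1, Lgals9, Siglech and Havcr2, of which Lair1 and Lgals9 had already been picked by their p. For comparison, 2.67% of all tested genes were higher at that p, and 7.63% of those with a mean above 100 CPM. RNA-binding and splicing regulators, the list of Qk, had 35 of 49 higher (median 0.12), and 28 of 49 without BCAS replicate 2. In that list Ddx5, an RNA helicase, reached 3060 CPM in the highest BCAS library against 576 in the lowest (Sham 647 to 929 CPM), while Ptbp3 (63.7 to 181 against 44.6 to 73.1 CPM) and Celf1 (32.8 to 122 against 1.21 to 57.1 CPM) lay lower in BCAS (adjusted p from 0.356 to 0.46 for these 3).

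**Figure D4:**
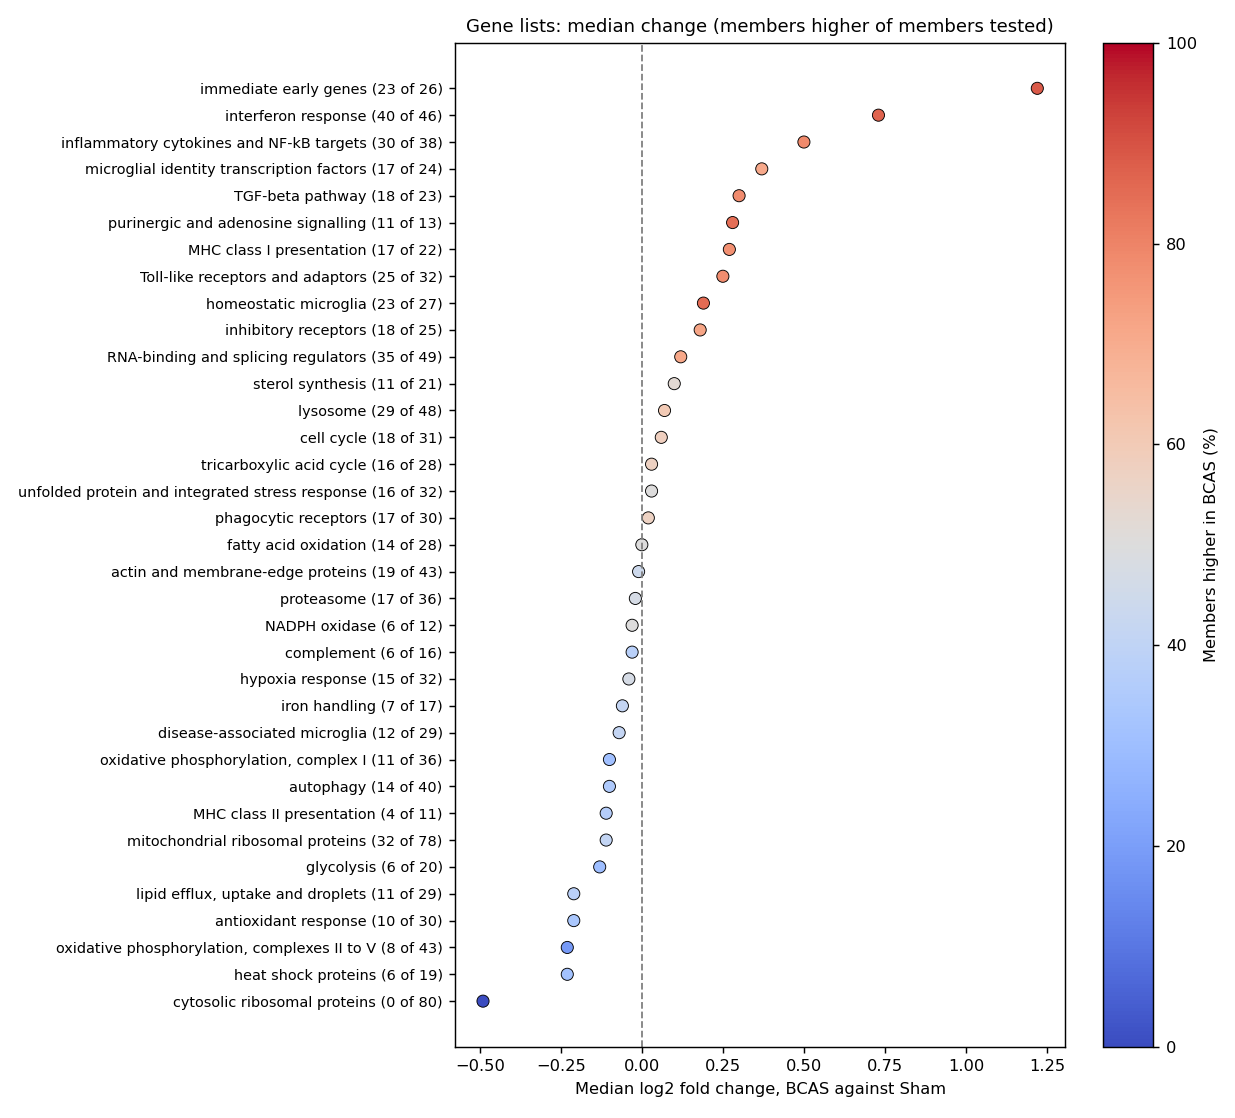
Median log2 fold change, BCAS against Sham, of 35 gene lists, with the number of tested members that were higher; colour gives the percentage of members higher, and the dashed line is the median of all 10219 genes. Cytosolic ribosomal proteins lie lowest at -0.49 and immediate early genes highest at 1.22.

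Transcripts of the homeostatic state, the surveying state of resting microglia, were higher in BCAS by small steps. Of 27 members 23 were higher (median 0.19), 6 of them at an unadjusted p under 0.05 and no lower one. A mean above 100 CPM was reached by 26 of the 27, and of all genes above that mean 7.63% were higher at that p. The mean log2(CPM + 1) of the list was 10 to 10.27 in Sham, above that in 4 BCAS libraries (up to 10.52), and lowest of all, at 9.97, in BCAS replicate 2. P2ry12, the ADP receptor that steers microglial processes to damage, stood at 3099, 3759 and 4428 CPM in Sham and 3962, 5511 and 6425 CPM in BCAS (0.51, SE 0.19, adjusted p = 0.441). P2ry13, a sister receptor, stood at 727 to 1578 CPM and 1167 to 2811 CPM (0.71, SE 0.24, adjusted p = 0.392). Cx3cr1 (0.38, SE 0.15, adjusted p = 0.468) and the lectin Siglech (2773 to 3577 against 3531 to 4845 CPM, adjusted p = 0.54) overlapped little. Gpr84, a receptor for medium-chain fatty acids, stood at 54.3 to 148 CPM and 104 to 287 CPM (0.91, SE 0.30, adjusted p = 0.38). Unlike the list mean, Gpr84 was highest in BCAS replicate 2, as P2ry12 was, and its log2 fold change was 0.73 without that library. Tmem119, a surface marker of microglia, stood at 1296 to 2270 CPM in Sham, 1738 to 2550 CPM in 5 BCAS libraries and 625 CPM in BCAS replicate 2. With the covariate for detected genes the list stood at 17 of 27 higher and a median of 0.05.

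Purinergic and adenosine signalling had 11 of 13 members higher (median 0.28), with Entpd1, the ectoenzyme that removes phosphates from extracellular ATP, at 298 to 531 CPM in Sham and 360.0 to 775 CPM in BCAS (adjusted p = 0.864). The TGF-beta pathway, which maintains microglial identity, had 18 of 23 higher (median 0.30, and 13 of 23 by voom), 2 at an unadjusted p under 0.05. Beside that, 2.67% of all tested genes and 7.63% of those with a mean above 100 CPM were higher at that p. The receptor Tgfbr1 stood at 220.0 to 381 CPM and 245 to 607 CPM (0.41, SE 0.26, adjusted p = 1). Transcription factors of microglial identity had 17 of 24 higher (median 0.37), but 2 members each way were at an unadjusted p under 0.05. Fli1 and Mef2a were the higher ones (36.9 to 99.8 against 63.0 to 182 CPM, and 27.4 to 143 against 58.6 to 212 CPM). Sall3 was lower, at 9.73 to 63.9 CPM in Sham and 2.37 to 36.7 CPM in BCAS, and Cebpb was near 0 throughout, at most 15.1 CPM in Sham and 1.73 CPM in BCAS.

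Interferon response genes, which type I interferons induce through the transcription factor complex that Irf9 completes, were higher in BCAS but differed widely between libraries of one group. Of 46 tested members 40 were higher (median 0.73), and 6 of the 40, with no lower member, were at an unadjusted p under 0.05. Among all tested genes 2.67% were higher at that p, and 7.63% of those with a mean above 100 CPM. The 4 members described next have the smallest p of the list. Log2 fold changes of other members included 0.08 and 0.10, and -1.36 among the 6 that were lower. Irf9 stood at 21.7, 79.7 and 89.4 CPM in Sham and 100.0, 126 and 191 CPM in BCAS, the one member whose groups did not overlap (0.96, SE 0.27, adjusted p = 0.36). Lgals3bp, a secreted glycoprotein that interferon induces, stood at 332, 635 and 814 CPM and 590.0, 1297 and 1951 CPM, lowest in BCAS replicate 2 (1.10, SE 0.29, adjusted p = 0.356, and 0.0413 without that library). Slfn2, a schlafen protein, stood at 18.2 to 42.6 CPM and 20.0 to 143 CPM (1.40, SE 0.45, adjusted p = 0.376). Ifit3, an antiviral protein, stood at 4.74, 31.4 and 45.2 CPM and 21.1, 90.3 and 235 CPM (1.68, SE 0.62, adjusted p = 0.441). The list's mean log2(CPM + 1) was 3.35 to 5.09 in Sham and 3.91 to 5.65 in BCAS. BCAS replicates 5 (5.40) and 6 (5.65) were above every Sham library, and the other 4 lay inside the Sham range. The median was 0.81 both without BCAS replicate 2 and without BCAS replicates 1 and 2.

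The interferon-stimulated response element, written here as GAAANNGAAA and searched on both strands in the 250 bases before an annotated start, was present in 19 of the 36 members with a RefSeq window (52.8%) and in 3.39% of the 8343 tested genes with one, at 1 or more annotated starts. At the first listed start alone the shares were again 19 of 36 and 2.76%. Neighbouring copies that overlap were counted as separate matches. The 3 members that hold it and have the smallest p are printed to show where it lies, each as the 250 bases before the first listed start with the element in capitals.
Ifit3: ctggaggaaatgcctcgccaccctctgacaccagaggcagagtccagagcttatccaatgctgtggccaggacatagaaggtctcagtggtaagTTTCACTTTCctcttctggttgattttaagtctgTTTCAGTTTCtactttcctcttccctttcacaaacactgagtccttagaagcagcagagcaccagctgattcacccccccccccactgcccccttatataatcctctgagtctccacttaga
Slfn8: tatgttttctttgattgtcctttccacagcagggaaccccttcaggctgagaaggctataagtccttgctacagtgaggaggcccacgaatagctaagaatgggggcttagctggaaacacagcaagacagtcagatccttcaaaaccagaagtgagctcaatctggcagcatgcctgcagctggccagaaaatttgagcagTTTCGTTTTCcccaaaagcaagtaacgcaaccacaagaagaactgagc
Bst2: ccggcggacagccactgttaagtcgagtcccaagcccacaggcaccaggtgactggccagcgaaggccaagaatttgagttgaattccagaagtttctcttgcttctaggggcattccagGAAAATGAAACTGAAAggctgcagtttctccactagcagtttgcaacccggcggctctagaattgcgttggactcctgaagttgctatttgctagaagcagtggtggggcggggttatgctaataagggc
These lie at chr19:34583279-34583528 on the plus strand, chr11:83020811-83021060 on the minus strand and chr8:71537473-71537722 on the minus strand. Ifit3 held 2 matches, Bst2 a pair that overlap, and Slfn8 a single one whose last base is 39 bases before the start. The log2 fold changes of Slfn8 and Bst2, a membrane protein that tethers virus particles, were 0.74 and 0.54. A match is a description of the sequence, not evidence that a factor binds there, and no match was found in the windows at the first listed starts of Irf9, Lgals3bp and Slfn2.

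Class I antigen presentation, which displays peptides from inside the cell, had 17 of 22 members higher (median 0.27), 4 of them at an unadjusted p under 0.05. The share of all tested genes higher at that p was 2.67%, and 7.63% with a mean above 100 CPM. The heavy chain H2-D1 stood at 1624, 2554 and 3044 CPM in Sham and 2174, 3885 and 6160 CPM in BCAS (0.77, SE 0.23, adjusted p = 0.376). H2-K1, another classical heavy chain, stood at 410.0 to 1241 CPM and 678 to 2551 CPM, and H2-M3 at 16.6 to 95.2 CPM and 39.2 to 193 CPM. The light chain B2m stood at 8948, 12035 and 14765 CPM and 13210, 16125 and 18921 CPM (0.46, SE 0.16, adjusted p = 0.394). For H2-D1 the highest BCAS libraries were replicates 5 and 6, the same that were highest in interferon genes. Reads of class I heavy chains can match several near-identical genes, so the split between them is uncertain. Class II presentation lay the other way in count, with 7 of 11 lower (median -0.11).

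Immediate early genes, transcription factors that respond within minutes to many stimuli including the handling of cells, had the largest list median (1.22, 23 of 26 higher), and it rested mostly on BCAS replicates 1 and 2. The mean log2(CPM + 1) was 3.65 to 5.11 in Sham. In BCAS it was 7.73 in replicate 2, 6.12 in replicate 1 and 5.2 in replicate 3, all above every Sham library. Replicates 5 (3.47) and 6 (3.53) were below every Sham library. Atf3, a stress-induced factor, stood at 0.163, 25.4 and 90.0 CPM in Sham and 23.9, 75.9 and 1838 CPM in BCAS, and Egr1 at 55.3, 247 and 674 CPM and 88.6, 600.0 and 4014 CPM (adjusted p = 0.407 and 0.568). Klf6, a zinc finger factor, reached 692 CPM in BCAS replicate 2 and 87.4 to 203 CPM in the other 5 (Sham 30.9 to 142 CPM). Egr3 was at 23.1 CPM in BCAS replicate 2 and at most 0.325 CPM in the other 11 libraries. Without BCAS replicate 2 the list median was 0.56, and without BCAS replicates 1 and 2 it was 0.05 with 14 of 26 higher. Heat shock proteins, often induced beside these genes, had 13 of 19 members lower (median -0.23), with Hsp90ab1, a cytosolic chaperone, at 1262 to 1969 CPM in Sham, 1193 to 1397 CPM in 5 BCAS libraries and 694 CPM in BCAS replicate 2. The mitochondrial chaperone Hspa9 was higher (63.9 to 142 against 115 to 288 CPM, adjusted p = 0.392).

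Inflammatory cytokines and NF-kB targets followed the same libraries. Of 38 tested members 30 were higher (median 0.50), 7 at an unadjusted p under 0.05 and none lower. At that p 2.67% of all tested genes were higher, and 7.63% of those with a mean above 100 CPM. Tnf, a central cytokine, was at 32.4 to 219 CPM in BCAS replicates 1 to 4, at no more than 0.0813 CPM in replicates 5 and 6, and at most at 10.3 CPM in Sham (adjusted p = 0.462). Nfkbiz, a nuclear cofactor of NF-kB, was at 345 and 331 CPM in BCAS replicates 1 and 2, at 34.5 and 11.1 CPM in replicates 3 and 4, at 0 in replicates 5 and 6, and at most at 7.75 CPM in Sham (adjusted p = 0.431). Il6 had 4.36 to 7.82 CPM in BCAS replicates 1 to 3 and no count in the other 9 libraries (adjusted p = 0.376). Il1a stood at 22.9 to 158 CPM in Sham and 60.8 to 600.0 CPM in BCAS (adjusted p = 0.476). No fold is given for Tnf, Nfkbiz and Il6, which were near 0 in most Sham libraries. Without BCAS replicates 1 and 2 the list was even, 19 higher and 19 lower, with a median of 0.08. Toll-like receptors and their adaptors had 25 of 32 higher (median 0.25), with 0 at an unadjusted p under 0.05.

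**Figure D5:**
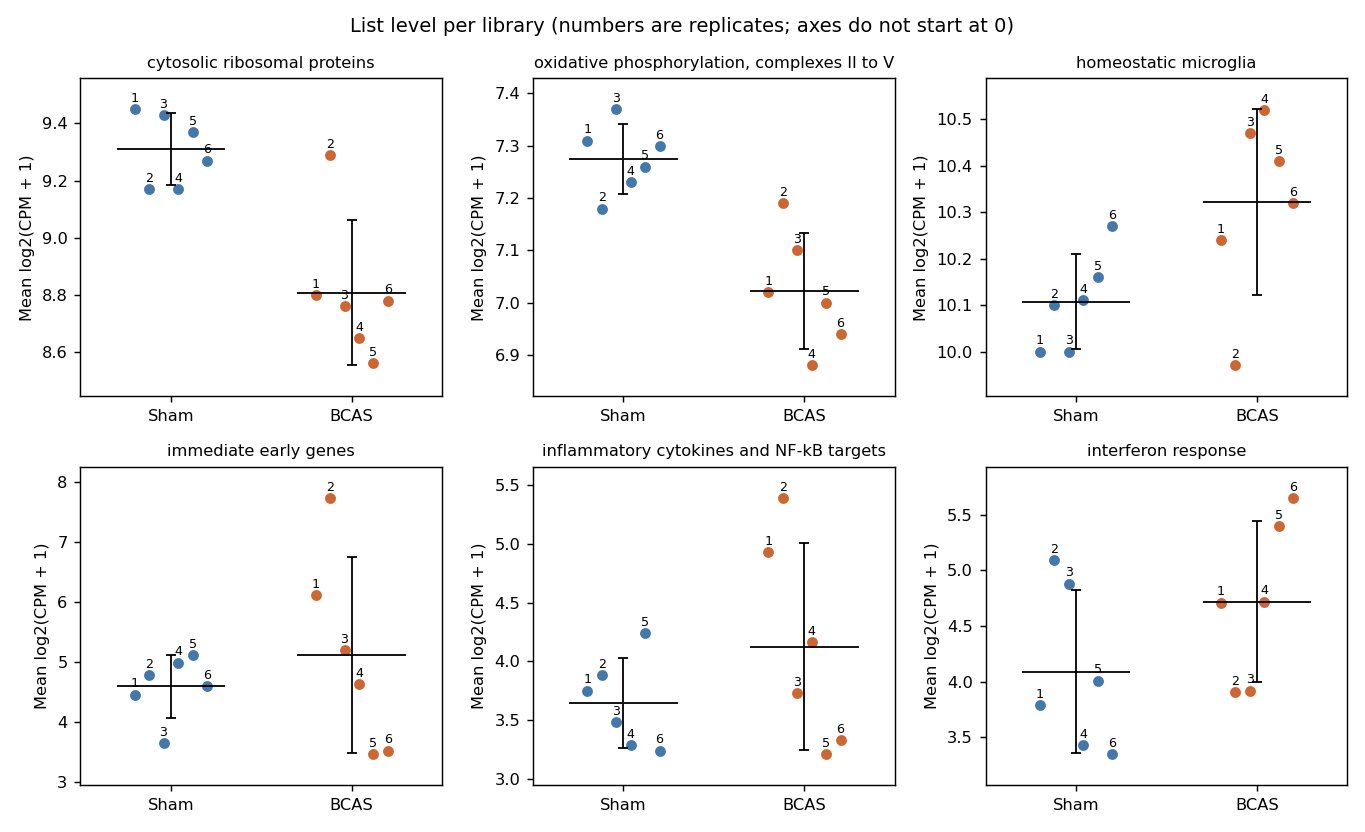
Mean log2(CPM + 1) of the tested members of 6 lists in each library, with the mean and SD of 6 libraries; axes do not start at 0. BCAS replicate 2 lies with Sham for ribosomal proteins and is highest for immediate early and inflammatory genes, and BCAS replicates 5 and 6 are highest for interferon genes.

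Genes of disease-associated microglia, the phagocytic and lipid-handling state seen around amyloid and damaged myelin, were not higher as a list: 12 of 29 were higher (median -0.07). Apoe, the main lipid carrier of the brain, stood at 3850, 5456 and 9754 CPM in Sham and 1582, 3290 and 7594 CPM in BCAS (-0.67, SE 0.30, adjusted p = 0.693). Lpl, a lipase of the same state, stood at 51.0, 136 and 204 CPM and 23.1, 63.5 and 120.0 CPM (-0.98, SE 0.38, adjusted p = 0.461). The groups overlapped for both. The cathepsin Ctsz, also in that list, was slightly higher (1783 to 2907 against 2495 to 3111 CPM, adjusted p = 0.902). The wider list of lipid efflux, uptake and droplet genes had 18 of 29 lower (median -0.21), but the 9 members with a mean above 100 CPM had a median of 0.12. Its mean log2(CPM + 1) was 5.22 to 5.59 in Sham and 4.57 to 5.47 in BCAS, with 5 BCAS libraries below every Sham library. Nr1h2, the sterol-sensing liver X receptor beta, stood at 67.3 to 108 CPM in Sham and 17.6 to 81.5 CPM in 5 BCAS libraries, and at 0.0813 CPM in BCAS replicate 5. Soat1, which makes cholesterol esters for storage, stood at 36.1 to 124 and 14.4 to 76.7 CPM (adjusted p = 0.914 and 1 for these). Mfge8, a bridge between dying cells and phagocytes, stood at 14.7 CPM at the lowest and 46.0 CPM at the median in Sham and 5.98 CPM at the lowest and 33.9 CPM at the median in BCAS.

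Lysosomal genes were split, 29 of 48 higher (median 0.07). The cysteine proteases were among the higher: Ctss stood at 18351 to 25800 CPM in Sham and 24343 to 29453 CPM in BCAS (0.35, SE 0.13, adjusted p = 0.465), Lgmn, which activates other cathepsins, at 4836 to 6438 and 5594 to 8393 CPM, and Ctsc at 613 to 1042 and 813 to 1466 CPM. Lamp1, a protein of the lysosomal membrane, lay lower, at 864, 1129 and 1569 CPM in Sham and 302, 578 and 982 CPM in BCAS (-0.98, SE 0.36, adjusted p = 0.441). Phagocytic receptors (17 of 30 higher, median 0.02) and complement (6 of 16 higher, median -0.03) lay near the median of all genes, with 2 receptors among the higher members: C3ar1, for a complement fragment, at 154 to 275 CPM in Sham and 170.0 to 840.0 CPM in BCAS, where replicate 2 was the highest (0.94, and 0.51 without it), and the Fc receptor Fcgr1 at 174 to 410 and 345 to 478 CPM (adjusted p = 0.376 and 0.388). Rac1, a small GTPase of engulfment and of the NADPH oxidase, was at 456 to 692 CPM in Sham and 252 to 473 CPM in BCAS (-0.83, SE 0.32, adjusted p = 0.45).

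The antioxidant response, the programme of Nfe2l2, had 20 of 30 members lower (median -0.21), 4 at an unadjusted p under 0.05 and none higher, but the median of the 12 members with a mean above 100 CPM was 0.00. At that p 3.37% of all tested genes were lower, and 9.03% of those with a mean above 100 CPM. Thioredoxin Txn1 stood at 54.9, 104 and 123 CPM in Sham and 40, 58.2 and 76.2 CPM in BCAS (-0.78, SE 0.28, adjusted p = 0.416), and the peroxidase Prdx1 at 351 to 474 and 253 to 393 CPM (adjusted p = 0.754). Mafg, the small partner of Nfe2l2, stood at 10.8 to 54.3 CPM and 3.12 to 33.4 CPM. Srxn1 had 15.7 and 12.3 CPM in Sham replicates 2 and 3 and no count in the other 10 libraries. Hypoxia response genes were even (15 of 32 higher, median -0.04): Mif, a cytokine of the list, was at 150.0 to 219 CPM in Sham and 90.4 to 172 CPM in BCAS (adjusted p = 0.475), and Ndrg1 had 89.1 and 201 CPM in Sham replicates 3 and 4 but at most 2.83 CPM in any other library. In Sham replicate 4 the oligodendrocyte markers were also highest, and the part of that RNA in the level of Ndrg1 was not tested.

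Other lists lay close to the median of all genes: 16 of 32 unfolded protein and stress response genes, 17 of 36 proteasome subunits, 11 of 21 sterol synthesis genes, 18 of 31 cell cycle genes and 6 of 12 NADPH oxidase genes were higher. Sel1l, an adaptor for the disposal of misfolded proteins in the endoplasmic reticulum, was the member of the stress list with the smallest p (57.7 to 130 CPM in Sham, 27.4 to 60.2 CPM in BCAS, -1.14, SE 0.31, adjusted p = 0.356). Autophagy genes had 26 of 40 lower (median -0.10). Iron handling (10 of 17 lower) and actin and membrane-edge proteins (24 of 43 lower) had medians of -0.06 and -0.01. In all of these bulk values, fewer cells of a kind and less RNA per cell cannot be told apart.

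Detection of single genes was counted with no test. Of the 10219 tested genes, 48 had a count in at least 5 Sham libraries and in at most 1 BCAS library, and 16 the reverse. Sugp2 alone had a count in all 6 Sham libraries and in no BCAS library, and no gene had the reverse. It is not a gene the naming rule picks, and was singled out once its values were known. The number of genes detected per library, given above, was lower in BCAS without passing its test (exact permutation, adjusted p = 0.134). Its part in these counts was not tested.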

How the data were processed

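The deposited table holds the authors' estimated counts per Entrez gene, made from the reads by steps not given in the sources used here and not scaled between libraries. Values were whole in all libraries for 76.8% of genes. Of 22064 identifiers 6186 were blank and 15878 had values. Mitochondrially encoded genes had none, so they are not analysed here. Symbols and promoter windows came from RefSeq GRCm38.p6 (the first listed start of a gene in print) and transcript lengths from GENCODE vM21.

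Rounded counts were fitted in edgeR 4.0.16, run in R 4.3.3 (filterByExpr with a minimum of 10 counts, 10219 genes, TMM factors 0.936 to 1.17, robust quasi-likelihood F test of BCAS minus Sham). All 24 libraries entered 1 fit with 4 group means, with Benjamini-Hochberg adjustment over all genes and a threshold of 0.05. SE is the log2 fold change divided by the square root of F. CPM are on the TMM scale. Triplets of CPM in the text are the lowest, median and highest of 6 libraries, Sham first unless stated. Alternatives used DESeq2 1.42.0 and limma 3.58.1, and leaving out libraries. The edgeR procedure was tested on data simulated for this comparison (3 simulations of 10219 genes, 200 changed). The changed genes were all drawn from those with a mean above 100 CPM. The procedure recovered 47% of their 2-fold and 94.7% of their 4-fold changes, and 5.33 false calls arose per simulation. Recovery for genes below that level was not tested. Reads were amplified without molecular identifiers, so they do not count independent molecules.

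The comparison, gene lists and tests were chosen with earlier results of these data known. Named genes are Marcks, Lair1 and Qk, 10 genes in each direction by smallest p, up to 4 members of each list by smallest p, 4 microglial genes and the most abundant markers. The rule picked 141 genes, apart from markers, and the text names 80, a choice made after values were seen; some genes the rule picked are not reported here. Printed sequences, the length check and the motif searches were also added after results were seen.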

Additional observations from a re-analysis of the deposited data

Results flagged for a closer look

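A library was taken as standing apart when its gap to the nearest of its group of 6 was larger, as a share of the group's range, than Dixon's critical value for 6 values. The values were taken as printed: CPM for genes and marker sums, and mean log2(CPM + 1) for other lists. This held in 27 of 194 groups of values that the text names. The critical value gives about 1 in 20 by chance only for independent values from a normal distribution. CPM here are often skewed, the groups share their libraries, and the named genes were chosen after values were seen. The counts of groups given here can therefore not be read against 1 in 20. BCAS replicate 2 was the library in 14 of the 27. With genes and marker sums on the log2(CPM + 1) scale it held in 19 groups, 10 of them with BCAS replicate 2, and 12 groups were found on both scales. Over every gene the naming rule picks and every list it held in 55 of 378 groups on the printed scale. The scale was settled after both had been seen.

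For ribosomal proteins BCAS replicate 2 was the highest of BCAS. It stood at 1366 CPM for Rplp1 (the other 5 at 805 to 939), 651 for Rps24 (313 to 435), 490.0 for Rps28 (261 to 330.0), 653 for Rpl27a (361 to 427) and 1698 for Rpl10 (1000 to 1152). Its mean log2(CPM + 1) over the list was 9.29 (8.56 to 8.80). The same library was the highest for the early response genes Atf3, at 1838 CPM (23.9 to 638), Klf6, at 692 CPM (87.4 to 203), and Egr3, at 23.1 CPM (0.00 to 0.325). It was also the highest for the cytokine Il1a, at 600.0 CPM (60.8 to 205), the receptor C3ar1, at 840.0 CPM (170.0 to 318), the helicase Ddx5, at 3060 CPM (576 to 1378), and the transcription factor Cebpb, at 1.73 CPM (0.00 to 0.149). For the chaperone Hsp90ab1 it was the lowest, at 694 CPM (1193 to 1397).

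In the other BCAS libraries, Lgals9 was lowest in replicate 4 at 610.0 CPM (929 to 990.0), Ifit3 was highest in replicate 6 at 235 CPM, and Hspa9 in replicate 1 at 288 CPM (115 to 166). Oligodendrocyte markers summed to 1373 CPM in BCAS replicate 1 (125 to 364).

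Among Sham libraries, replicate 2 was the highest for Tnf, at 10.3 CPM (0.00 to 0.624), Nfkbiz, at 7.75 CPM (0.0344 to 1.37), Cebpb, at 15.1 CPM (0.286 to 5.02), and Tpi1, at 373 CPM (267 to 307). Egr3 was highest in replicate 3 at 0.208 CPM, with no count in the other 5. Summed markers were highest in replicate 4 for oligodendrocytes, at 8755 CPM (164 to 384), in replicate 1 for neurons, at 338 CPM (0.333 to 27.3), in replicate 3 for endothelium, at 1288 CPM (7.60 to 365), and in replicate 2 for mural cells, at 999 CPM (0.00 to 200).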

How the results depend on the processing

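The number of genes past an adjusted p of 0.05 was 0 with the settings reported, with RLE size factors, with no filter, with a mean of at least 10 CPM, with only the 12 libraries, with a covariate for detected genes and without Sham replicates 1 and 3. It was 5 with a mean of at least 100 CPM, 9 with voom, 31 without BCAS replicates 1 and 2, 204 with DESeq2, and 0 to 32 when 1 library was left out, where 32 came without BCAS replicate 2 and 0 without any other. Replicate numbers do not pair the libraries: same-numbered libraries correlated at -0.153 to -0.018 in their deviations and none correlated best with its own number. A fit with the replicate number as a block passed 0 genes.

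The BCAS minus Sham difference in genes with a count was -573, and -710 to -435 with 1 library left out, passing an exact permutation p of 0.05 without Sham replicate 6 (-698, p = 0.0455), BCAS replicate 1 (-710, p = 0.0411) or BCAS replicate 2 (-706, p = 0.0433). The difference in total counts was -391857, and -890465 to 32475 with 1 library left out; it turned positive without BCAS replicate 3 only.

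The median changed sign under at least 1 alternative for 16 of 35 lists. For 3 of these it had been beyond 0.1 either way: class II presentation (-0.11 to 0.36 with the covariate), glycolysis (-0.13 to 0.01 without BCAS replicates 1 and 2) and lipid genes (-0.21 to 0.13 with a mean of at least 100 CPM). The median of immediate early genes went from 1.22 to 0.05 without BCAS replicates 1 and 2. Medians that moved by more than the spread of the list's level between libraries, a wide measure where 1 library stands apart, were, with voom, all genes (-0.12), sterol synthesis (-0.53 from 0.10), lipid genes (-0.60 from -0.21) and autophagy (-0.32 from -0.10), and, with detected genes as a covariate, lysosome (-0.10 from 0.07). No gene named in the text changed sign under an alternative. Of the genes the rule picked but the text does not name 5 did: Dnajb1 (1.35 to -0.33 without BCAS replicates 1 and 2), Hvcn1 (0.22 to -0.02 with the covariate), Hmox1 (-0.30 to 0.01 without Sham replicate 3), and, near 0 CPM in several libraries so that no fold is given, Cd59a (without Sham replicate 4) and Ccnd2 (without Sham replicates 1 and 3). The causes were not tested. Genes below 100 CPM are limited by a wide SE: its median was 0.24 above that level and 1.10 over all genes. What makes the SE wide there was not tested.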
